A study of Mus musculus with 4 samples.

Results

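The narrowest peaks of a chromatin immunoprecipitation sequencing (ChIP-seq) map of the transcription factor Sp5 are described here. They are the intervals that share the smallest width in the deposited peak list, about 140 bp, and were chosen as those whose end minus start equals exactly that smallest value. There were 677 such peaks of 9428 in all (7.18%, 95% Wilson interval 6.68 to 7.72%), and they are called minimum-width peaks below. The remaining 8751 peaks, at least 1 bp wider, are called wider peaks. The map came from A2Lox.cre mouse embryonic stem cells, a line in which a chosen cDNA is placed under doxycycline control, grown as floating aggregates (embryoid bodies). Doxycycline was given on day 2 to switch on Flag-tagged Sp5 for 24 h, and the chromatin of day 3 cells was sheared to about 100 to 300 bp. One group was 2 immunoprecipitations with the M2 antibody against the Flag tag (4 µg each), and the other was 2 inputs without antibody. The sample titles name Flag-Sp5 for the immunoprecipitations and Flag ESC for the inputs. The treatment label gives doxycycline for all 4 samples, so no sample without the inducer was present to show what the antibody pulls down by itself. Growth on feeder cells from mouse embryos preceded the aggregates, and the feeders were removed beforehand.

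Sp5 is a zinc-finger protein of the SP/KLF family, whose members bind GC-rich boxes and related CACCC elements in promoters and enhancers. Its gene is switched on by Wnt/β-catenin signalling, and it is known from the primitive streak, the part of the embryo in which mesoderm arises and which embryoid bodies mimic. A peak is a stretch in which immunoprecipitated fragments pile up above background. Peak callers commonly discard stretches shorter than a set length, which is often tied to the fragment size they estimate, and therefore a list can have a sharp lower edge in width. The labels do not say whether such a setting produced the edge at the minimum width here, or why many peaks share exactly that width.

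The list gives 1 set of intervals for all libraries, with no score, summit or read count. Depth is therefore unknown, no value below has a replicate error, and the strength of a minimum-width peak cannot be compared with that of a wider one. Intervals given with shares cover the counting error of peaks only, and neighbouring peaks are not independent. Coordinates are 1-based on mm9, the build that the submitters' processing notes name. No sequence or annotation of that build was used, so bases, motifs and gene context of the peaks were not analysed here.

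The minimum width stood apart from every other width by its number of peaks, a description of the values by which the peaks were chosen. Just above it, 92 peaks were 1 bp wider. The next 9 widths, up to 150 bp, held between 82 and 113 peaks each, with a mean of 96.1, so that the minimum width was 7.04 times as frequent. Above the edge the numbers fell steadily when averaged over 20 widths at a time. The first 20 widths above the minimum had 87.5 peaks each on average, those from 182 bp on had 60.9 and those from 242 bp on had 29.9. Wider peaks had a median width of 201 bp, with the central 50% between 167 and 255 bp. Minimum-width peaks covered 95.5 kb, or 4.59% of the 2.08 Mb under all peaks.

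**Figure D1:**
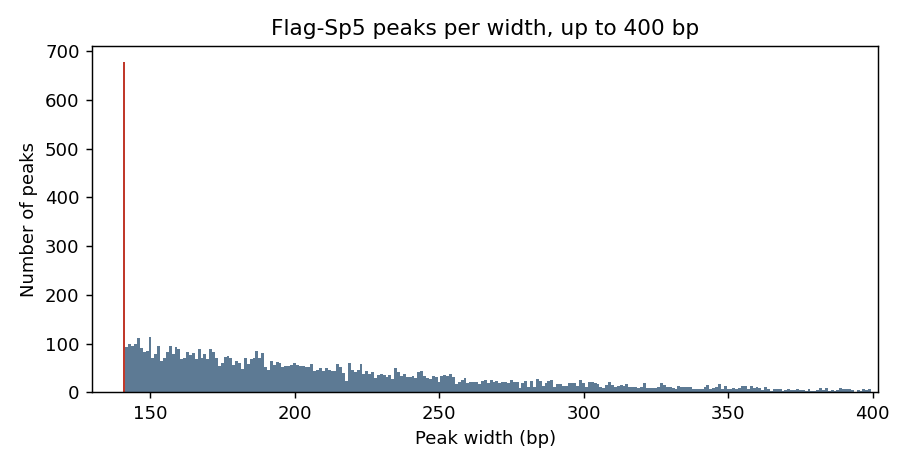
Number of Flag-Sp5 peaks (vertical axis) at each peak width in bp (horizontal axis, up to 400 bp), with the minimum width in red and all other widths in blue. The 677 peaks of minimum width form a single spike, and the next 9 widths have 82 to 113 peaks each.

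Minimum-width peaks were spread over all 19 autosomes and X, and made up between 4.80 and 9.63% of the peaks of each autosome. They made up 7.09% of autosomal peaks (657 of 9265, interval 6.59 to 7.63%). Chromosome 3 had the highest autosomal share, 9.63% (42 of 436, interval 7.21 to 12.8%), and chromosome 12 the lowest, 4.80% (17 of 354, interval 3.02 to 7.56%). The overall share of 7.18% lay within the interval of 18 of the 19 autosomes, with chromosome 3 just outside. Equal shares over the autosomes were tested with Pearson's chi-square, which treats peaks as independent, and the differences did not exceed counting error (chi-square per degree of freedom 0.932, 18 degrees of freedom, p = 0.538, Benjamini-Hochberg adjusted p = 0.668 over the 4 tests made).

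The density of minimum-width peaks went with that of the wider peaks over the autosomes, though not on each of them. Chromosome 11 had the most per Mb of span between its first and last peak, 0.439 (52 peaks, 95% Poisson interval 0.328 to 0.575), followed by chromosome 5 with 0.396 (59 peaks, interval 0.302 to 0.511). Chromosome 12 had the fewest among autosomes, 0.146 per Mb (interval 0.0848 to 0.233). Chromosome 3 was the sparsest autosome in all peaks, 2.79 per Mb, but had 0.269 minimum-width peaks per Mb, near the 0.273 of all autosomes. Over the 19 autosomes, minimum-width and wider peaks per Mb had a Pearson correlation of 0.77 and a Spearman correlation of 0.72. The share of minimum-width peaks and the density of all peaks had correlations of 0.0079 and 0.0088. Both are descriptions over chromosomes that come from the same libraries. With each autosome divided into 5 equal parts from its first to its last peak, the share was lowest in the first part, 6.55% (111 of 1694 peaks, interval 5.47 to 7.83%), and highest in the middle one, 7.56% (129 of 1707, interval 6.40 to 8.91%). These intervals overlap, and the last part was at 7.12% (178 of 2501 peaks). Minimum-width peaks fell in 322 of 524 blocks of 5 Mb, and no block held more than 9. That number was reached by 2 blocks, both on chromosome 5, with 9 of 46 and 9 of 114 peaks. The first of these had a share well above the overall one. Both were picked by their number of minimum-width peaks, and their shares were not tested.

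**Figure D2:**
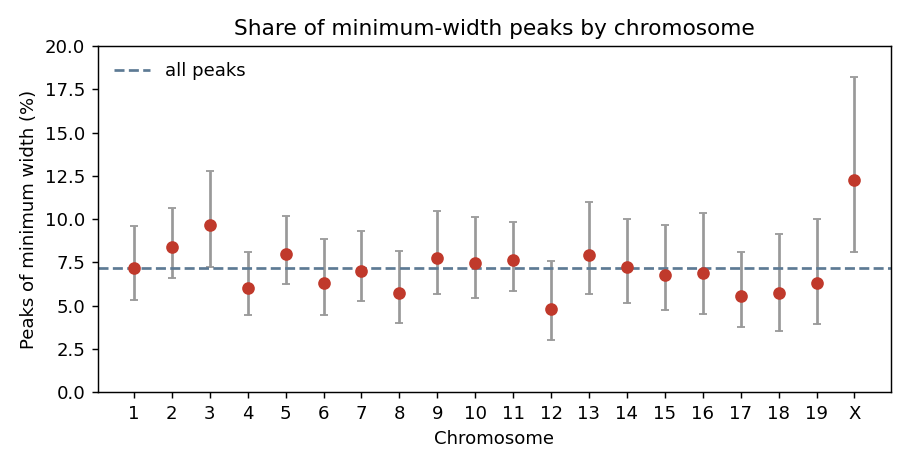
Share of minimum-width peaks (points, %) among the peaks of each chromosome, with 95% Wilson intervals (bars) and the share in the whole list (dashed line, 7.18%). The 19 autosomes lie between 4.80% on chromosome 12 and 9.63% on chromosome 3, and X lies highest at 12.3%.

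X had the highest share of all chromosomes, 12.3% (20 of 163 peaks, interval 8.09 to 18.2%). The odds of being a minimum-width peak were 1.83 times those on autosomes (logistic model with 5 Mb blocks as the unit of error, 95% interval 1.08 to 3.10, n = 9428 peaks, p = 0.024). This missed the threshold of 0.05 after adjustment over the 4 tests (n = 9428 peaks, Benjamini-Hochberg adjusted p = 0.0962). Without the last 1 Mb of X that carries peaks, which holds 2 minimum-width peaks and no wider one, the odds ratio was 1.65 (interval 0.978 to 2.78). The peaks just above the edge were placed in a like way, since X held 2.95% of minimum-width peaks (interval 1.92 to 4.52%) and 2.77% of the wider peaks up to 150 bp (24 of 865, interval 1.87 to 4.10%). In each of the 6 classes above 150 bp X held between 1.38 and 1.64%. With the class widened to all peaks up to 150 bp, 27.0% of X peaks (44 of 163) and 16.2% of autosomal peaks were in it, an odds ratio of 1.92 that passed the threshold (interval 1.36 to 2.70, n = 9428 peaks, adjusted p = 0.000754). Set against the wider peaks up to 160 bp alone, the odds ratio was 1.39 (interval 0.793 to 2.44). A higher share on X was thus not shown to be particular to the minimum width. X carried few peaks of either kind. Per Mb of span, minimum-width peaks were at 0.455 times and wider peaks at 0.248 times their autosomal density. How many X chromosomes these cells carried, and how well reads map to X, cannot be read from the list, and their part in the result was not tested.

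The next comparison asked whether minimum-width peaks lay in sparser surroundings than other peaks. They did not differ detectably. The number of other peaks with a midpoint within 500 kb on either side, a window of 1 Mb, had a median of 5 for both groups, with the central 50% between 3 and 9 in both. The mean was 6.73 ± 5.85 for minimum-width peaks (SD over 677 peaks) and 6.75 ± 5.53 for wider ones (SD over 8751 peaks). In a linear model over all peaks with the chromosome as a factor and standard errors clustered by chromosome, the local density of minimum-width peaks was 0.984 times that of wider peaks (95% interval 0.931 to 1.04, n = 9428 peaks on 20 chromosomes, p = 0.539, adjusted p = 0.668), on the scale of the number of other peaks plus 1. The mean was lower for minimum-width peaks on 12 of 20 chromosomes and higher on 8.

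Both ends of the density range held minimum-width peaks in about their overall share. In windows with no other peak, 34 of 435 peaks had the minimum width (7.82%, interval 5.65 to 10.7%). In windows with over 20 others the share was 9.24% (29 of 314, interval 6.51 to 12.9%), and in between it ran from 6.64 to 7.89%. On X, no other peak lay within 500 kb of 9 of 20 minimum-width peaks (45%, interval 25.8 to 65.8%) and 37 of 143 wider ones (25.9%, interval 19.4 to 33.6%). On autosomes this held for 25 of 657 (3.81%, interval 2.59 to 5.56%) and 364 of 8608 (4.23%, interval 3.82 to 4.67%). The split was made after the values were seen and was not tested. The densest 5 Mb block of the list, on chromosome 5 from 133283660 to 138283659, had 9 minimum-width peaks among 114 (7.89%, interval 4.21 to 14.3%). At the start of chromosome 9, a region picked from its values, 12 peaks crowd between 3000143 and 3031734. Of those, 9 were wider peaks of at most 160 bp and the narrowest measured 143 bp. None had the minimum width, where the overall share of 7.18% would give 0.862 of 12, and a count of 0 among 12 (a limit of 3 counts) allows a share of up to 25%.

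Distance to the nearest wider peak was the third measure, taken between midpoints. For a wider peak it was the distance to the nearest wider peak other than itself, so that both groups had nearly the same set of possible neighbours. Its median was 49.99 kb for minimum-width peaks (central 50% from 14.2 to 147 kb) and 51.5 kb for wider peaks (12.2 to 150 kb). In the same kind of linear model, the distance was 1.03 times as long for minimum-width peaks (95% interval 0.877 to 1.22, n = 9428 peaks on 20 chromosomes, p = 0.668, adjusted p = 0.668). Their median was the longer one on 10 chromosomes and the shorter one on the other 10.

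Very short distances were about as frequent in both groups. A wider peak lay within 1 kb of 43 minimum-width peaks (6.35%, interval 4.75 to 8.45%) and of 632 wider ones (7.22%, interval 6.70 to 7.78%). Within 10 kb the numbers were 140 (20.7%, interval 17.8 to 23.9%) and 1991 (22.8%, interval 21.9 to 23.6%). More than 1 Mb separated 11 minimum-width peaks (1.62%, interval 0.910 to 2.89%) and 101 wider ones (1.15%, interval 0.951 to 1.40%) from any wider peak. The neighbour itself had a median width of 201 bp beside minimum-width peaks and 202 bp beside wider ones.

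**Figure D3:**
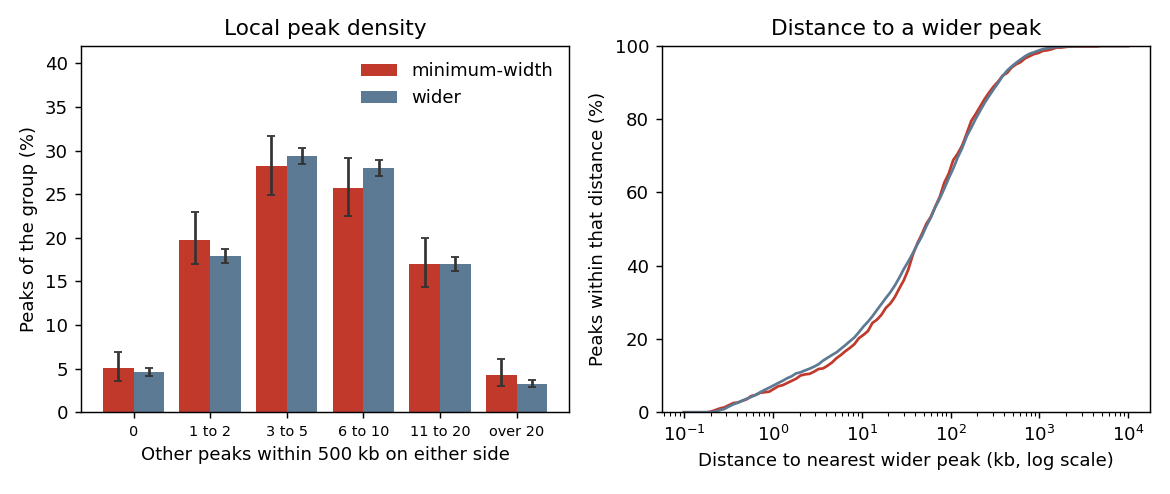
Left, share of each group of peaks (%) by the number of other peaks within 500 kb on either side, with 95% Wilson intervals. Right, share of each group (%) that has a wider peak within a given distance in kb (log scale), for minimum-width (red) and wider (blue) peaks. The intervals of the 2 groups overlap in each class on the left, and the curves on the right run close together, with medians of 49.99 and 51.5 kb.

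The wider peaks were not uniform, and over the whole range of widths, width itself went with the surroundings. A model with log2 width as a further term, added after seeing the data, gave 1.12 times the local density (95% interval 1.08 to 1.16, n = 9428 peaks, p = 1.38e-06) and 0.750 times the distance (interval 0.666 to 0.844, p = 6.28e-05) for each doubling of width. A wider peak lay within 10 kb of 27.5% of peaks over 300 bp (interval 25.1 to 30.0%) and of 24.9% of peaks of 251 to 300 bp. The shares were 19.5% for peaks of 161 to 180 bp (interval 17.5 to 21.6%), 21.3% for the wider peaks up to 150 bp and 20.7% for the minimum width. The mean number of other peaks within 500 kb was 7.75 for peaks over 300 bp, 6.26 for 161 to 180 bp, 6.44 for the wider peaks up to 150 bp and 6.73 for the minimum width. By the share within 10 kb and the mean density, the minimum-width peaks did not rank lowest. Their interval for the 10 kb share (17.8 to 23.9%) overlapped that of each class of wider peaks up to 300 bp, so the order among these is not settled. It lay below that of peaks over 300 bp. Mean densities are given without intervals, and the median density was 5 in each class up to 250 bp. The median distance of minimum-width peaks, 49.99 kb, was shorter than that of the wider peaks up to 150 bp, 65.8 kb. A wider peak lay within 100 kb of 67.2% of minimum-width peaks (interval 63.6 to 70.6%) and of 60.6% of the wider peaks up to 160 bp (interval 58.2 to 62.9%), against 64.8% of all wider peaks. These intervals do not overlap, but in the linear model against the wider peaks up to 160 bp the log10 distance differed by -0.044 (interval -0.129 to 0.042, n = 2357 peaks, p = 0.299), and the share within 100 kb was not tested by itself. With width in the model, their density was 1.05 times (interval 0.994 to 1.12, n = 9428 peaks, p = 0.0769) and their distance 0.870 times (interval 0.719 to 1.05, p = 0.142) what the trend gave at their width. That trend is a single line over all widths. Among the classes up to 200 bp, mean density (6.26 to 6.73) and 10 kb share (19.5 to 21.3%) did not rise steadily with width.

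**Figure D4:**
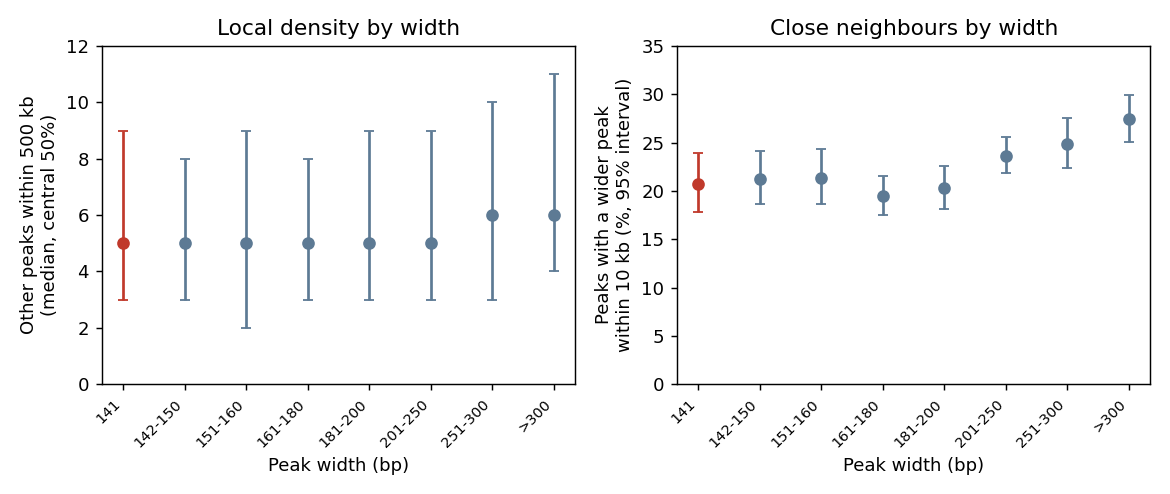
Left, number of other peaks within 500 kb on either side (median and central 50%) in 8 classes of peak width in bp. Right, share of peaks with a wider peak within 10 kb (%, 95% Wilson interval) in the same classes. Minimum-width peaks (red) sit at a median of 5 and at 20.7%, wider peaks up to 150 bp at 5 and 21.3%, and peaks over 300 bp at 6 and 27.5%.

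Single minimum-width peaks illustrate the range. The one closest to a wider peak was on chromosome 7 from 102836973 to 102837113, with midpoints 200 bp apart from a peak of 159 bp that ends at 102836922. Next came chromosome 2 from 174412292 to 174412432, at 206 bp from a peak of 159 bp, and chromosome 9 from 107383037 to 107383177, at 211 bp from a peak of 189 bp. Chromosome 13 from 101420990 to 101421130 (220.5 bp) and chromosome 8 from 122932147 to 122932287 (237 bp) completed the 5 closest, beside peaks of 164 and 169 bp. The surroundings of these peaks differed widely, since the chromosome 9 and chromosome 8 peaks had 21 and 20 others within 500 kb and the chromosome 7 peak had 2.

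At the far end, 4 of the 5 most remote minimum-width peaks were on X. The most remote ran from 27139847 to 27139987, 4.47 Mb from the nearest wider peak and as far from any peak. The others on X began at 166344179 (1.98 Mb), 33577008 (1.87 Mb) and 39753014 (1.46 Mb), and the autosomal one was on chromosome 8 from 54065543 to 54065683 (1.42 Mb). None of the 5 had another peak within 500 kb. On X, 7 of 20 minimum-width peaks lay over 1 Mb from a wider peak (interval of the share 18.1 to 56.7%), against 16 of 143 wider ones (11.2%, interval 7.01 to 17.4%), and the median distances were 456 and 219 kb. On autosomes these shares were 0.609% (4 of 657, interval 0.237 to 1.55%) and 0.987% (85 of 8608, interval 0.799 to 1.22%), with medians of 48.3 and 51.0 kb. This split by chromosome was made after the values were seen and its difference was not tested.

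Minimum-width peaks had each other as nearest neighbours about as often as their share of the list. The nearest peak of any width was a minimum-width one for 42 of them (6.20%, interval 4.62 to 8.28%) and for 627 wider peaks (7.16%, interval 6.64 to 7.72%). Read along the chromosomes, 591 stood alone between wider peaks, 74 came in 37 runs of 2, and 12 in 4 runs of 3. The runs of 3 were on chromosome 3 from 14578484 to 15355530, chromosome 9 from 15633459 to 16304646, chromosome 10 from 86756222 to 88147966 and chromosome 17 from 91592096 to 92482877. Each run spanned between 0.671 and 1.39 Mb.

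Within 100 kb, no more than 3 minimum-width peaks were found together. This occurred on chromosome 5 from 128939850 to 129030841, among 5 peaks, and in a pair of overlapping stretches on chromosome 7 that together ran from 20369475 to 20472587 and held 4 minimum-width peaks among 9. Only 2 pairs of minimum-width peaks had midpoints within 1 kb of each other. The chromosome 5 pair ran from 129030510 to 129030650 and from 129030701 to 129030841, a gap of 50 bp. The chromosome 17 pair ran from 86759795 to 86759935 and from 86760036 to 86760176, a gap of 100 bp, with 143 kb to the nearest wider peak. Apart from these 4 peaks, no minimum-width peak had another within 10 kb, which gives 0.591% (interval 0.230 to 1.51%). Of wider peaks, 183 had a minimum-width peak within 10 kb (2.09%, interval 1.81 to 2.41%). Within 100 kb the shares were 10.04% (68 of 677) and 11.1% (968 of 8751), and the difference at 10 kb was noticed in the data and not tested.

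Leaving any peaks out of a list can only lower the number of close neighbours and keep or lengthen the longest empty stretch. These directions were therefore fixed in advance, and the values below only describe their size for the minimum-width peaks, 7.18% of the list. No equal number of other peaks was left out for comparison. Of the 8751 wider peaks, 2101 (24.0%) had any other peak within 10 kb and 1991 (22.8%) had another wider one, so 110 owed their close neighbour to a minimum-width peak alone. Wider peaks over 1 Mb from their nearest neighbour rose in number from 90 to 101. Stretches of over 3 Mb without a peak numbered 47 in the full list and 49 without the minimum-width peaks. Of those 49, 11 held minimum-width peaks, 14 in all. They were 5 of the 13 such stretches on X and 6 of the 36 on autosomes, a difference that was not tested. The longest stretch was 9.69 Mb in the full list and 12.8 Mb without the minimum-width peaks. The latter, on X from 22673246 to 35448952, held 2 minimum-width peaks and no others.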

How the data were processed

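ChIP-seq of Flag-Sp5 (2 samples) and input chromatin (2 samples) was deposited by the authors as 1 list of chromosome, start and end per peak (3 columns). The submitters' processing notes name mm9 as the build and list Bowtie, MACS2, HOMER and Picard as tools, with no version. How peaks were called, what minimum length applied and how libraries were pooled is not stated there. Depth is unknown. The labels do not say whether samples came from separate cultures.

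The minimum width was 141 bp (end minus start), and wider peaks measured 142 bp or more. Width, local density and distances were computed from the intervals with Python 3.11.15, pandas 2.3.3, scipy 1.17.1 and statsmodels 0.14.6. Density was the number of other midpoints within 500 kb, as log2(number + 1). Distance was between midpoints, as log10 of bp. Both were compared in linear models with chromosome as a factor, errors clustered over 20 chromosomes, two-sided. The 4 p-values were adjusted by Benjamini-Hochberg, with a threshold of 0.05. The tests were also run on simulated class labels, drawn over the real positions evenly or with planted differences. These draws did not copy the dependence of neighbouring peaks. Detection of a planted difference was required for density, distance and autosomes, but not for X. Blocks of 5 Mb were counted from the first peak of a chromosome. Individual peaks named were the 5 closest to and the 5 farthest from a wider peak, the stretches of 100 kb with most minimum-width peaks, the longest runs, and the highest and lowest autosome by share. Other regions and splits were picked from their values. The peaks and comparisons were chosen with earlier results of these data known. Alternatives covered the window, the width class, the error unit, chromosomes omitted, chromosome ends and the kind of distance.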

Additional observations from a re-analysis of the deposited data

How the results depend on the processing

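No paired analysis was possible because the deposited intervals are common to all samples, and no replicate could be left out for the same reason. The list's unknown depth and threshold limit what a missing peak can show. Local density and distance to a wider peak passed the threshold under none of 30 and 29 alternatives (adjusted p at least 0.154 and 0.071). Their log differences (minimum-width minus comparison) of -0.024 (log2) and 0.015 (log10) changed sign against the wider peaks up to 160 bp only (0.021 and -0.044) and with width as a further term (0.077 and -0.060, added after seeing the data). The density difference also changed sign in a window of 0.5 Mb (0.018). With the class widened to all peaks up to 4 bp above the minimum, the distance difference was 0.058 (interval 0.0044 to 0.113, n = 9428 peaks, raw p = 0.0355, adjusted p = 0.071). With 1 of the 19 autosomes omitted at a time they ran from -0.044 to -0.0080 and from 0.0029 to 0.029. Differences between autosomes stayed within counting error under all 21 alternatives (chi-square per degree of freedom from 0.735 to 1.37). The X odds ratio ran from 1.39 to 1.92 over 24 alternatives and passed the threshold after adjustment under 2, the class of all peaks up to 150 bp (1.92) and peaks taken as independent (1.83, n = 9428 peaks, adjusted p = 0.0495).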
